A study of Mus musculus with 16 samples.

Results

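The genes described here belong by symbol to families that make, break down, bind or carry the signal of cyclic AMP (cAMP), or shorten the signal of G proteins. They were the adenylyl cyclases (Adcy), the phosphodiesterases (Pde), the subunits of protein kinase A (Prkar, Prkac), the A-kinase anchoring proteins (Akap), the Rapgef exchange factors, the Popeye genes and the regulators of G protein signaling (RGS), all taken by gene symbol, together with Bves and Akain1 by name. Of 89 matching symbols, 76 had a mean CPM of at least 0.5 over the 16 libraries and were kept, out of 17293 genes in the table. Not all of the 76 act on cAMP or G proteins. They include 2 cGMP-specific phosphodiesterases and 3 genes with a Pde symbol and another role. The lowest gene kept was Pde4c (mean 0.791 scaled CPM) and the highest left out was Akap3 (0.447). RNA was taken from the amygdala of C57BL/6 mice (given as C57BL6/J in the methods) at PN28, and each combination of sex and condition (CTRL or PS) had 4 libraries, 16 in all. The dams of PS offspring met varied psychosocial stressors, in no fixed order, while pregnant, and those of CTRL offspring were left alone. None of these mice was cross-fostered as far as the labels say, so prenatal exposure and the rearing by a stressed dam cannot be told apart here. The 4 mice of a group came from different litters.

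As background, adenylyl cyclases turn ATP into cAMP when stimulatory G proteins or calcium activate them, and inhibitory G proteins restrain them. In neurons cAMP releases the catalytic subunits of protein kinase A (PKA) from its regulatory subunits, and AKAPs hold this kinase beside receptors and channels at the synapse. Phosphodiesterases end the signal, Epac and Popeye proteins bind cAMP without being kinases, and RGS proteins speed the return of G alpha subunits to rest. In the amygdala this pathway is known for its part in the forming of fear memories.

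Values are CPM of the deposited table scaled by library (TMM), called scaled CPM, and fold changes are differences of log2(scaled CPM + 0.5) with their standard error (SE). A gene was called at a Benjamini-Hochberg adjusted p under 0.05 over all genes tested with limma. Library totals of the deposited values were 39989993 to 44275406. All 8 male libraries had Xist under 1 CPM, and all 8 female libraries had Ddx3y under 1 CPM. The amygdala label was compared with marker genes. Basolateral amygdala markers (7 genes) summed to between 2053 and 4000 scaled CPM per library. Markers of central amygdala, intercalated and striatal neurons (10 genes) summed to 25.2 to 68.6 scaled CPM, with Six3 at 0 in all 16 libraries. Markers of hippocampal neurons (11 genes) summed to between 1357 and 3729 scaled CPM, with no gene at 0 in any library. Sums over lists of different genes do not give the share of each tissue. In such bulk tissue, fewer cells of a type and less RNA per cell cannot be told apart.

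The levels of the 76 genes ranged from 0.142 to 215 scaled CPM per kilobase (kb) of exon, and the PKA subunits Prkar1a and Prkar1b were at the top. Prkar1a, a regulatory subunit made in most cells, had the highest mean level over the 16 libraries with 215 scaled CPM per kb, followed by the neuronal subunit Prkar1b with 143. The calcium-dependent phosphodiesterase Pde1a (130 scaled CPM per kb), the calcium-stimulated cyclase Adcy1 (98.3) and the cGMP-stimulated phosphodiesterase Pde2a (89.8) came next. The catalytic subunit Prkaca stood at 67.5 scaled CPM per kb. Among the RGS genes Rgs4 was highest (67.3 scaled CPM per kb), followed by Rgs7bp (56.0), which encodes a membrane anchor of RGS proteins. Akap11 led the anchoring proteins with 52.4 scaled CPM per kb, and Rapgef4, an Epac gene, led the exchange factors with 49.9. The cAMP-specific phosphodiesterases were lower, with Pde4a (16.2 scaled CPM per kb) and Pde8b (9.31) at their head. Of the Popeye genes, Popdc3 stood at 6.67 scaled CPM per kb (rank 45 of the 76 genes) and Bves at 1.22 (rank 66).

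**Figure D1:**
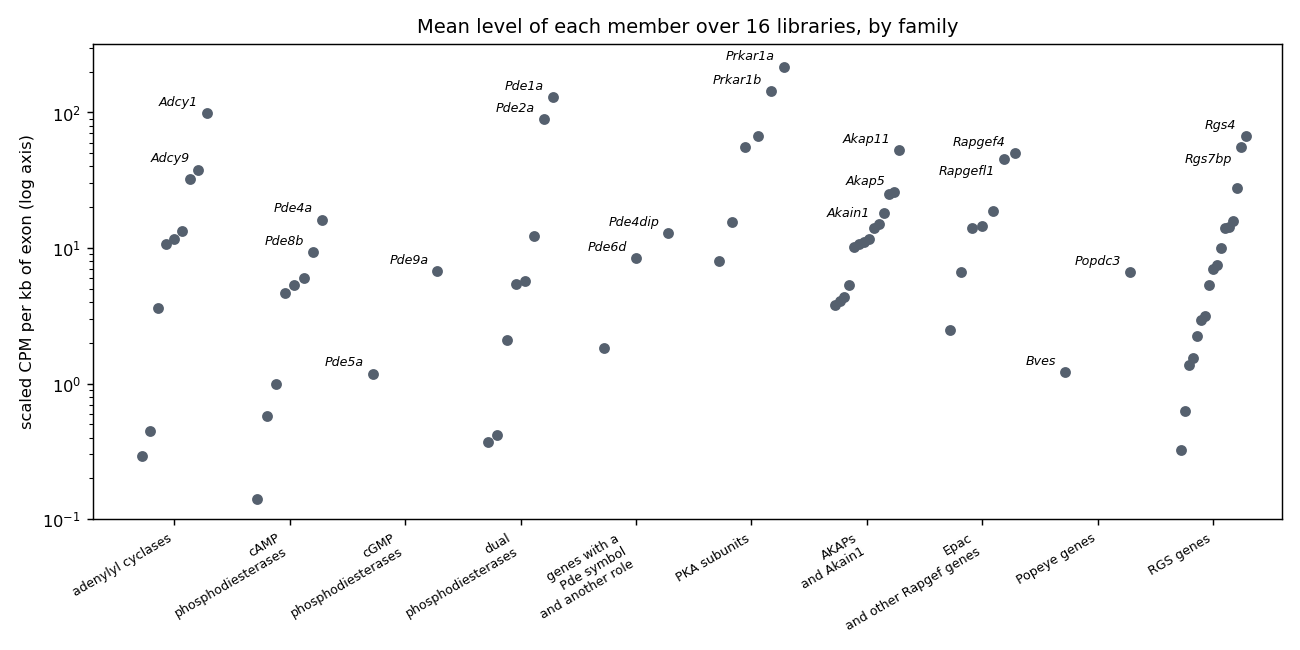
Mean level of each of the 76 genes over 16 libraries, in scaled CPM per kb of exon on a log axis, grouped by family; each point is 1 gene and the highest of each family, Akain1 and Bves are named. Prkar1a is highest at 215 and Bves stands at 1.22.

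Promoter sequence was examined because PKA is known to act on transcription through CREB, which binds the cAMP response element TGACGTCA or its core TGACG. In RefSeq promoters (GRCm38.p6, the 250 bases before each annotated start), the core TGACG on either strand was found in 5836 of 32851 windows (17.8%), in 19 of 113 windows of 63 of these genes (16.8%), and in 2 of 20 windows of the 9 genes that were called in males and had an entry. The full element was in 1.55% of all windows, 0.885% of the windows of these genes, and none of the 20. The windows of the inhibitor Akain1 (chr17:69439076-69439325, plus strand) and of the scaffold Akap5 (chr12:76324641-76324890, plus strand) are shown because these genes moved in opposite directions in PS males, and neither holds the core. Those of Prkar1b (chr5:139150002-139150251, minus strand) and of a downstream start of Rgs12 (chr5:34998828-34999077, plus strand) hold the core, in capitals, beginning 49 and 82 bases before the start. A match of letters is not a binding site, and the sequences are printed 5′ to 3′ along the gene.
Akain1: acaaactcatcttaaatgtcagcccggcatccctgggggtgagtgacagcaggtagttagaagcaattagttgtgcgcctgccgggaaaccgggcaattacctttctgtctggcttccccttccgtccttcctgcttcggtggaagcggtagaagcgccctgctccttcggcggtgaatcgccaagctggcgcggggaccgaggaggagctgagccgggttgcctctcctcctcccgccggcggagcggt
Akap5: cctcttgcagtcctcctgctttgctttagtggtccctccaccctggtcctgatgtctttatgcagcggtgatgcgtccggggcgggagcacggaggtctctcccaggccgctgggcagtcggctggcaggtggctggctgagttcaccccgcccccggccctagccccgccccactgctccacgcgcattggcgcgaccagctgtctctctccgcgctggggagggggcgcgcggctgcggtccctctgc
Prkar1b: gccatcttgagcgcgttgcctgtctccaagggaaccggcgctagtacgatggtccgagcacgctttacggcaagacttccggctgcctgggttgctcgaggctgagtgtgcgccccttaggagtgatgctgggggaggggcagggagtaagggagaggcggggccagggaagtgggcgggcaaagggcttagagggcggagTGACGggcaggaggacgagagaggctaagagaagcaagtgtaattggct
Rgs12: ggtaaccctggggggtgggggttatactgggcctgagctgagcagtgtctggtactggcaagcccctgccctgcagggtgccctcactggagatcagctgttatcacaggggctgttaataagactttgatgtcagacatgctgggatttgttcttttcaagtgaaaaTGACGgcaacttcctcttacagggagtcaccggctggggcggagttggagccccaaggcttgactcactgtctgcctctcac

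In males, PS and CTRL amygdala differed in 12 of the 76 genes (15.8%), while 492 of all 14309 genes tested were called (3.44%). Rgs11 was higher in PS males, and so were Bves and Akain1, which were taken by name with earlier results of these data known. The 15.8% counts Bves and Akain1 too, so it is not free of that choice. Akap5, Akap6, Prkar1b, Prkar2b, Pde2a, Adcy3, Rgs12, Rgs13 and Rgs14 were lower. Among all genes 0.881% were called higher and 2.56% lower. Without the library scaling 4 were called higher and 6 lower, and 9 of these 10 were among the 12. The adjusted p of the 12 genes lay between 0.0366 and 0.0489, and 5 of them (Bves, Akain1, Rgs14, Prkar2b and Rgs13) also passed a fold change of 1.5, as did 1.01% of all genes. The median log2 fold change of the 76 genes was -0.10, against 0.01 over all genes tested, and 34 of the 76 had an unadjusted p under 0.05 (25.7% of all genes did). With no mean trend in the variance none of the 12 calls stayed (0.755% of all genes were called), and with no filter on low values 2 did (0.893%). PS and CTRL males did not overlap in 19 of the 76 genes, of which 7 were higher and 12 lower, while this held for 22.2% of all genes (10.2% higher and 12.1% lower).

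**Figure D2:**
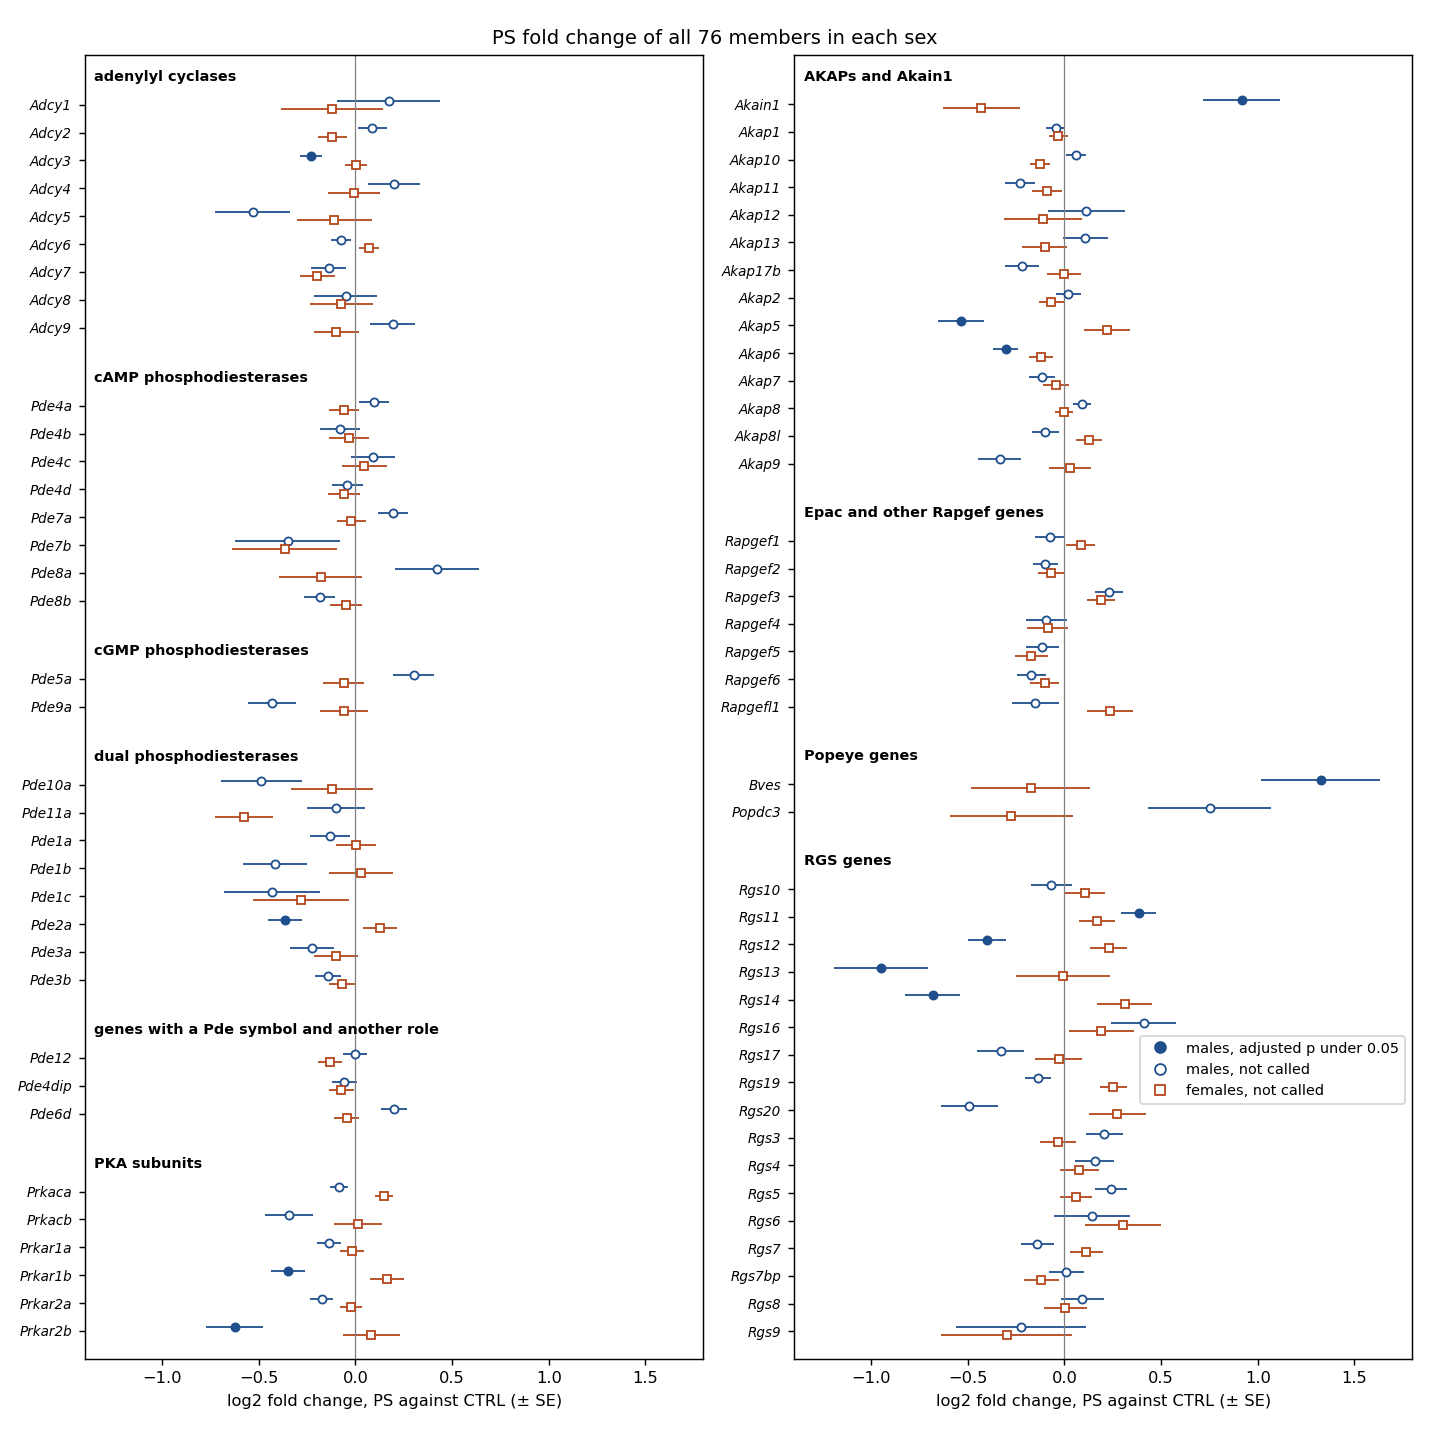
Log2 fold change of PS against CTRL (± SE) for each of the 76 genes by family, in males (blue circles, filled where the adjusted p was under 0.05) and in females (open orange squares, none called). Bves (1.33) and Akain1 (0.92) lie farthest to the right in males, and Rgs13 (-0.95) and Rgs14 (-0.68) farthest to the left.

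The largest rise was that of Bves, a membrane protein of the Popeye family that binds cAMP (chr10:45335772-45372479, plus strand, GRCm38). It stood at 3.44, 3.90, 3.34 and 2.33 scaled CPM in CTRL males LM17 to LM20 and at 6.25, 7.80, 7.88 and 15.3 in PS males LM25 to LM28. Every PS male was above every CTRL male, and LM28 was well above the other PS males. The log2 fold change was 1.33 (SE 0.31, limma, adjusted p = 0.0437, 95% interval 0.66 to 1.99). Popdc3, the other Popeye gene kept, lies 17.32 kb before Bves on the same strand. It had 9.25 to 14.0 scaled CPM in CTRL males and 12.1 to 32.3 in PS males, again with LM28 highest. These groups overlapped and Popdc3 was not called (log2 fold change 0.75, SE 0.32, limma, adjusted p = 0.16). The other member of the family, Popdc2, stayed under the CPM minimum.

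Akain1 encodes an inhibitor that binds PKA regulatory subunits and keeps them from AKAPs (chr17:69439326-69489233, plus strand). CTRL males had 33.5, 21.8, 28.1 and 28.5 scaled CPM of it, and PS males had 64.4, 49.1, 41.7 and 58.3. The groups did not overlap, and LM25 and LM28 were the highest. The log2 fold change was 0.92 (SE 0.20, limma, adjusted p = 0.0399). The anchoring proteins moved the other way where they were called. Akap5 brings PKA, protein kinase C and calcineurin to the postsynaptic membrane (chr12:76324891-76334153). It stood at 190, 198, 216 and 199 scaled CPM in CTRL males against 123, 151, 154 and 127 in PS males. All PS males were below all CTRL males, and the log2 fold change was -0.54 (SE 0.12, adjusted p = 0.0436 by limma). Akap6, which anchors PKA at the nuclear envelope, had 384 to 420 scaled CPM in CTRL males and 314 to 344 in PS males, with no overlap (log2 fold change -0.30, SE 0.06, limma, adjusted p = 0.0366). Of the other 11 AKAP genes none was called, and Akap9 (-0.34) and Akap11 (-0.23) had the lowest log2 fold changes among them.

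All 6 PKA subunits had negative log2 fold changes in PS males, as had 6896 of all 14309 genes tested. Of the 6, Prkar1b and Prkar2b were called, while 3.44% of all genes were. Prkar2b, a regulatory subunit abundant in brain and fat (chr12:31958476-32061296, minus strand), had 58.4, 68.7, 74.6 and 69.5 scaled CPM in CTRL males and 41.5, 52.5, 49.9 and 33.2 in PS males. The groups were apart and LM28 was the lowest. Its log2 fold change was -0.63 (SE 0.15, limma, adjusted p = 0.0441). Prkar1b (chr5:139017306-139150001, minus strand) had 549, 560, 551 and 637 scaled CPM in CTRL males and 464, 474, 448 and 416 in PS males, again without overlap. Its log2 fold change was -0.35 (SE 0.09, limma, adjusted p = 0.0476). The remaining subunits were not called, with log2 fold changes of -0.34 for the catalytic subunit Prkacb, -0.18 for Prkar2a, -0.14 for Prkar1a and -0.09 for the catalytic subunit Prkaca. The family had a median log2 fold change of -0.26.

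Among the enzymes that make cAMP, 1 of 9 cyclases was called, while 3.44% of all genes were. Adcy3, known as the cyclase of olfactory neurons and neuronal cilia, had 83.2, 91.5, 87.7 and 96.2 scaled CPM in CTRL males and 77.4, 79.1, 73.9 and 74.9 in PS males. The groups did not overlap and the change was small (log2 fold change -0.23, SE 0.06, limma, adjusted p = 0.0478). Its exons share 22.1% of their bases with Cenpo on the opposite strand, and no strand setting of the counting is stated. The most abundant cyclases per kb, Adcy1 (log2 fold change 0.17) and Adcy9 (0.19), were not called. Adcy5 had the lowest fold change of the family (-0.53, adjusted p = 0.113) and was not called either.

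Among the enzymes that break cyclic nucleotides down, Pde2a was called in the dual group of 8 enzymes. None of the 8 cAMP-specific and the 2 cGMP-specific enzymes was called, while 3.44% of all genes were. Pde2a, which cGMP stimulates to hydrolyse cAMP, had 554, 540, 577 and 653 scaled CPM in CTRL males and 438, 462, 463 and 437 in PS males. The PS males lay close together below all CTRL males, and the log2 fold change was -0.36 (SE 0.09, adjusted p = 0.0456 by limma). A gene on the same strand in GENCODE M21, Gm45837, covers 64.3% of the exon bases of Pde2a. How reads shared by 2 genes were counted is not stated. All 8 phosphodiesterases that act on both cAMP and cGMP had negative log2 fold changes (median -0.29), with Pde10a at -0.49 and Pde1b at -0.42, both not called. Negative values were also found for 6896 of all 14309 genes tested. The 8 cAMP-specific enzymes were split, 4 positive and 4 negative (median 0.02). Of the cGMP-specific enzymes, Pde9a was at -0.43 (adjusted p = 0.0675) and Pde5a at 0.30 (adjusted p = 0.108), both not called. Genes with a Pde symbol and another role (Pde12, the scaffold Pde4dip and the lipid-binding chaperone Pde6d) were not called in males.

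RGS genes held 4 of the 12 calls, out of 17 tested, while 3.44% of all genes were called. Rgs14 and Rgs12 each carry, beside the RGS domain, a GoLoco motif that binds inhibitory G alpha subunits, and Rgs14 is known for its high level in hippocampal CA2 neurons. Rgs14 (chr13:55369732-55384687) had 64.6, 65.0, 66.3 and 75.8 scaled CPM in CTRL males and 31.9, 40.3, 48.4 and 50.2 in PS males, where LM25 was lowest. The groups did not overlap, and the log2 fold change was -0.68 (SE 0.14, adjusted p = 0.0366 by limma). Rgs12 (chr5:34949445-35039644) had 66.9, 69.1, 74.8 and 66.2 scaled CPM in CTRL males against 49.6, 51.5, 50.5 and 57.8 in PS males. The groups did not overlap here either (log2 fold change -0.40, SE 0.10, limma, adjusted p = 0.0456). Rgs13, a small RGS protein known from B cells and mast cells, was low throughout. It had 3.67 to 7.06 scaled CPM in CTRL males and 1.56 to 3.81 in PS males, which overlapped (log2 fold change -0.95, SE 0.24, limma, adjusted p = 0.0489). Rgs11 belongs to the RGS proteins that pair with the G beta subunit Gnb5, and it rose. CTRL males had 12.2, 12.9, 12.6 and 11.3 scaled CPM of it and PS males 16.99, 14.98, 15.38 and 17.38, without overlap. Its log2 fold change was 0.38 (SE 0.09, limma, adjusted p = 0.0441). The other 13 RGS genes were not called, among them Rgs20 (log2 fold change -0.49, adjusted p = 0.0722), Rgs16 (0.41) and the most abundant per kb, Rgs4 (0.16).

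**Figure D3:**
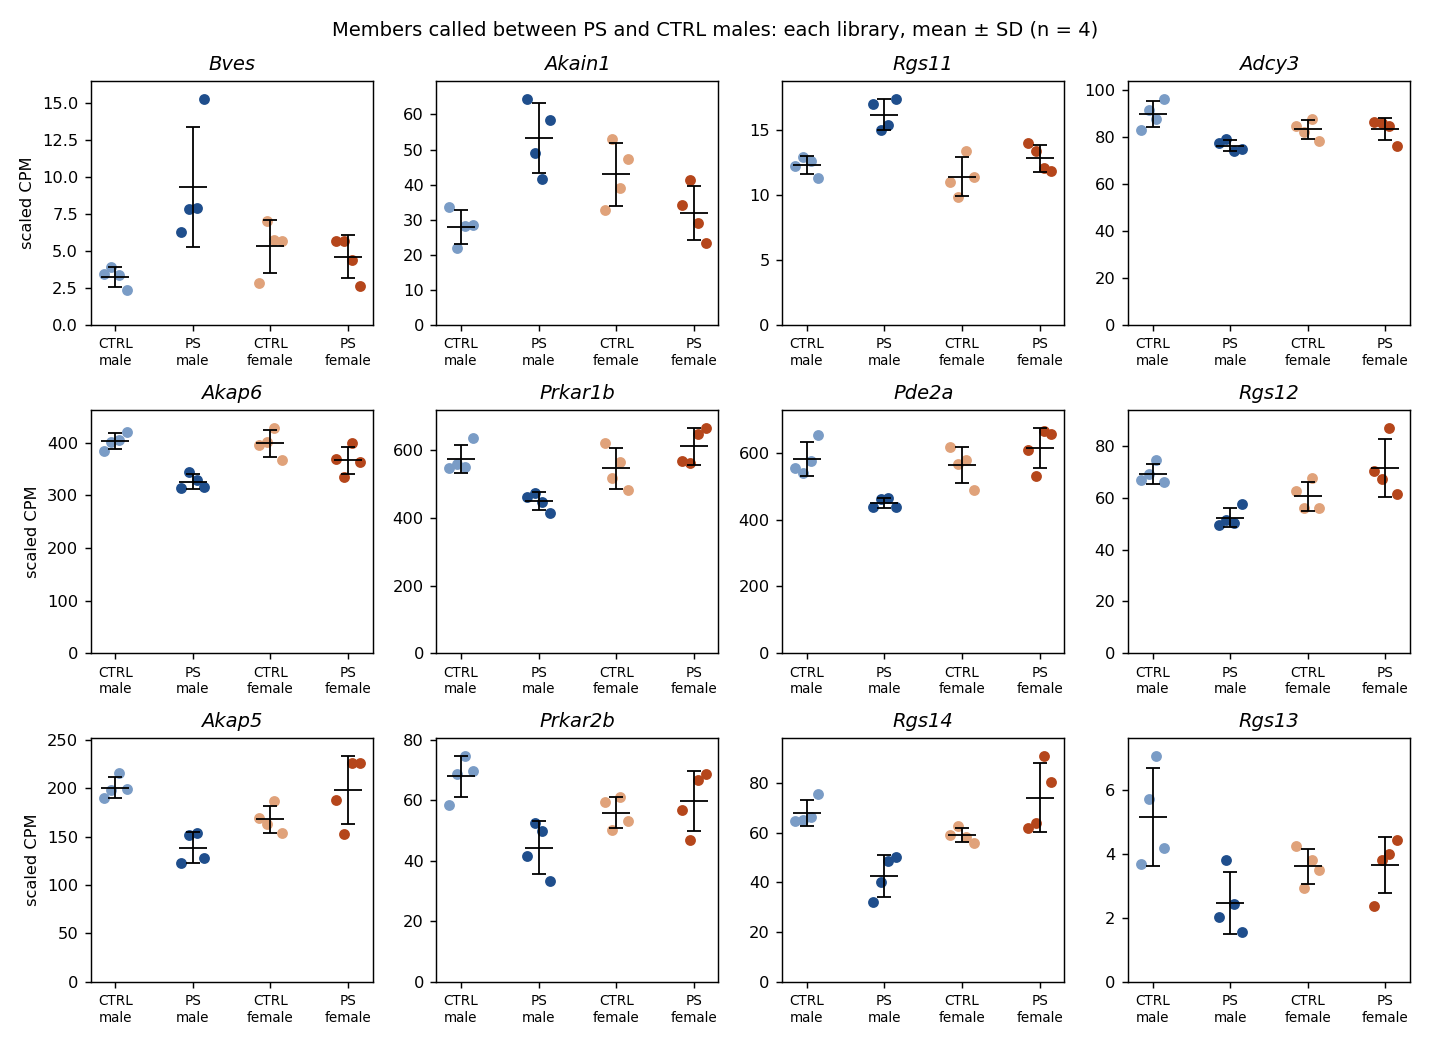
Scaled CPM of the 12 genes called between PS and CTRL males, in each of the 16 libraries (points) with the mean ± SD of each group (n = 4), on axes that start at 0. PS males lie apart from CTRL males in all but Rgs13, while PS and CTRL females overlap in all 12.

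These calls rest on few libraries, as do those of the whole table. None of the 76 genes was called without CTRL male LM18 (0.342% of all genes called), LM19 (0.58%) or LM20 (0.357%) or without PS male LM25 (0.364%), and 5 were called without PS male LM28 (3.36%), although all 12 kept their sign in every setting tried. LM25 and LM28 were also the PS males with the highest sums of the hippocampal markers (3701 and 3729 scaled CPM, against 1811 and 1705 in LM26 and LM27 and 1560 to 2369 in CTRL males). With both left out, none of the 76 genes was called in males (limma, 19 with an unadjusted p under 0.05), nor was any of all 14260 genes tested. With the hippocampal marker level in the model none of the 76 was called either (18 with an unadjusted p under 0.05), against 4 of all 14309 genes. In that model the log2 fold change of Rgs12 was -0.44, against -0.40 without it, and that of Adcy3 stayed at -0.23. For Rgs14 it was -0.63, against -0.68 without it. The log2 fold changes of Prkar2b (-0.33), Rgs13 (-0.55), Akain1 (0.57), Bves (0.87) and Akap5 (-0.36) were also smaller than without it. The same held for Prkar1b (-0.24), Pde2a (-0.28), Rgs11 (0.30) and Akap6 (-0.25). Over the hippocampal list, 8 of 11 genes had positive and 3 negative log2 fold changes in males (median 0.77), and none was called. Between PS females and PS males 3 were positive and 8 negative, and 1 was called, higher in females. The level in the model is the mean of this list, whose genes did not all move alike. Of all 14309 genes tested in males, 6896 were negative and 3.44% were called. The central amygdala, intercalated and striatal list summed to 25.2 to 46.9 scaled CPM in PS males and 41.9 to 68.6 in CTRL males. Of its 6 genes tested, 5 had negative log2 fold changes (median -0.82), among them Tshz1 (-0.62), and 1 was called. Oligodendrocyte markers summed to 451 to 979 scaled CPM in PS males and 257 to 494 in CTRL males, with all 7 genes positive and none called. Microglia markers summed to 105 to 134 scaled CPM in PS males against 138 to 159 in CTRL males. All 6 genes had negative log2 fold changes (median -0.28), among them Itgam and Cx3cr1, and 2 were called. The part of any of these lists in the changes of the 12 genes was not tested.

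**Figure D4:**
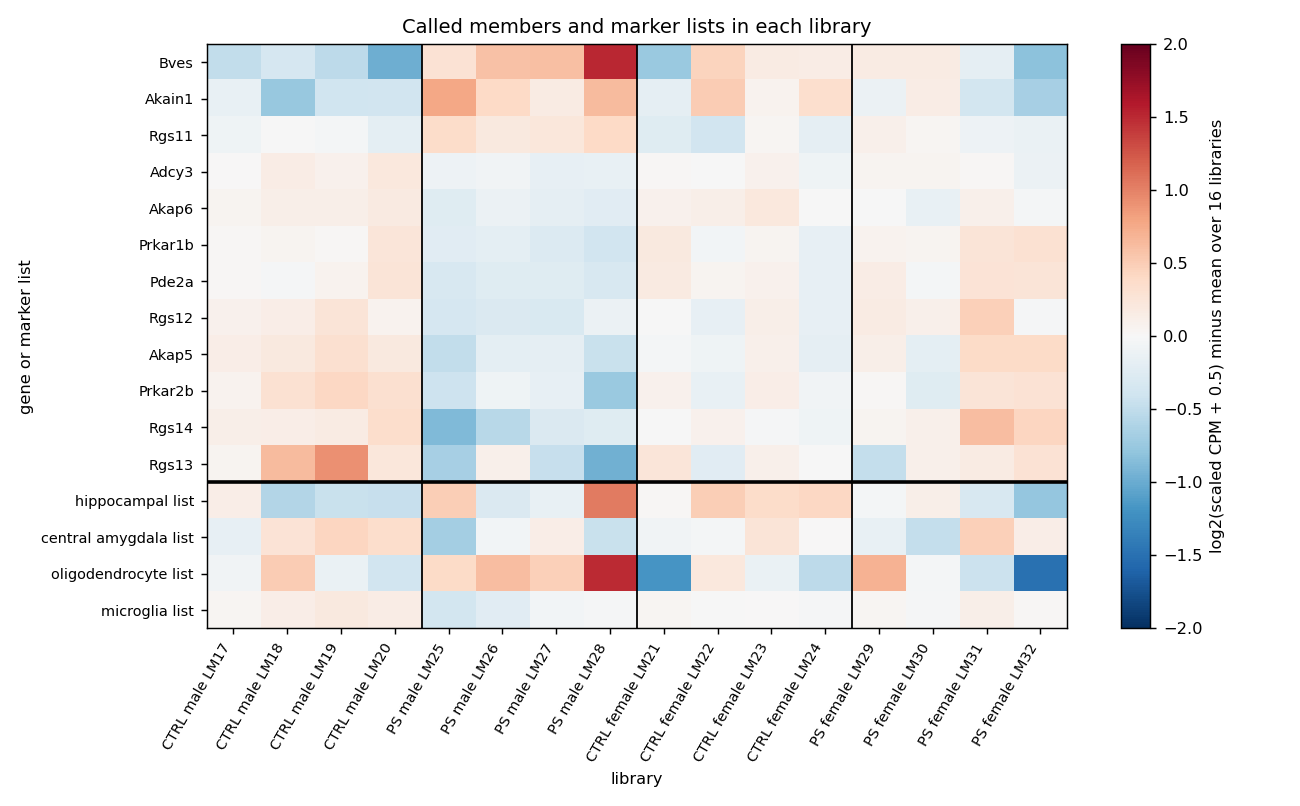
Log2(scaled CPM + 0.5) of the 12 called genes and mean log2 level of 4 marker lists in each library, as the difference from the mean over 16 libraries (red higher, blue lower). Among males, LM25 and LM28 are highest on the hippocampal list, LM28 is highest for Bves and LM25 is lowest for Rgs14.

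Females showed no change of these genes that passed the test. None of the 76 was called between PS and CTRL females (limma), as was none of all 14236 genes tested (0%). An unadjusted p under 0.05 was found for 9 of the 76, and for 12.7% of all genes. The log2 fold changes lay between -0.58 and 0.31, and the median was -0.03. The 95% intervals, which were not adjusted for the number of genes, reached a median of 0.21 to either side. A call also had to pass the adjustment, so changes larger than that could have been missed too. The lowest fold change was that of Pde11a, a dual phosphodiesterase enriched in hippocampus. It had 29.6 to 42.5 scaled CPM in CTRL females (LM21 to LM24) and 21.7 to 25.9 in PS females (LM29 to LM32). These groups did not overlap, and the log2 fold change was -0.58 (SE 0.15, adjusted p = 0.26 by limma). Rgs19 and Prkaca were higher in every PS female than in every CTRL female, at log2 fold changes of 0.25 and 0.15 (limma, adjusted p = 0.26 and 0.282). Adcy7 was the other gene without overlap (log2 fold change -0.20), which makes 4 of the 76 (7.54% of all genes). Bves had 2.81, 7.05, 5.72 and 5.67 scaled CPM in CTRL females and 5.69, 5.69, 4.42 and 2.63 in PS females, which overlapped (log2 fold change -0.18, SE 0.31, limma, adjusted p = 0.846). Akain1 had 32.7, 53.1, 39.0 and 47.3 scaled CPM in CTRL females and 34.2, 41.2, 28.9 and 23.4 in PS females (log2 fold change -0.43, SE 0.20, limma, adjusted p = 0.389). Of the 12 genes called in males, 9 had a fold change of the other sign in females, and in none of the 12 were PS and CTRL females apart. The share of all genes with such opposite signs was not computed. Hippocampal markers summed to 2412 to 2770 scaled CPM in CTRL females and 1357 to 2580 in PS females (median log2 fold change -0.77). With their level in the model none of the 76 genes was called in females (limma, 17 with an unadjusted p under 0.05), and the log2 fold changes were -0.60 for Pde11a, -0.10 for Akain1 and 0.26 for Bves.

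The effect of PS was compared directly between the sexes as the male minus the female log2 fold change. This difference was called for 7 of the 76 genes (9.21%), against 591 of 14392 genes tested (4.11%, with 1.31% positive and 2.79% negative). The 9.21% counts Akain1, which was taken by name with earlier results of these data known. Akain1 had the largest, at 1.35 (SE 0.28, limma, adjusted p = 0.0386), with 0.92 in males and -0.43 in females. The other 6 were negative. Rgs14 differed by -0.99 (SE 0.20, limma, adjusted p = 0.0376), with -0.68 in males and 0.31 in females. For Akap5 the difference was -0.76 (-0.54 in males and 0.22 in females), and for Rgs12 it was -0.63 (-0.40 and 0.23). Prkar1b differed by -0.51 (-0.35 and 0.16), Pde2a by -0.49 (-0.36 and 0.13) and Rgs19 by -0.39 (-0.14 and 0.25), with adjusted p between 0.0432 and 0.0477 in these 5 genes (limma). Rgs19, a regulator of inhibitory G proteins, was called in neither sex on its own. Genes chosen by this difference tend to have fold changes of opposite sign in males and females, and all 7 did. The difference was larger for Bves (1.501, SE 0.44) but did not pass (limma, adjusted p = 0.064). With the hippocampal level in the model none of the 7 calls stayed (none of all 14392 genes was called), and the difference was 0.67 for Akain1, -0.41 for Akap5, -0.30 for Prkar1b and -0.89 for Rgs14. None stayed with no mean trend in the variance either (0.0695% of all genes), and 2 did with no filter (0.84%). The count moved with single libraries, and so did the share over all genes. Leaving out CTRL female LM24 gave 1 call (0.806% of all genes), leaving out CTRL male LM20 or PS female LM31 gave 3 (1.14% and 1.26%), and leaving out CTRL female LM22 or PS female LM32 gave 4 (2.74% and 2.6%). It was 11 when PS female LM29 or LM30 was dropped (7.62% and 10.3%) and 12 when CTRL female LM21 was (9.78%).

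Females and males were also compared within each condition, and these comparisons share their libraries with those above. In CTRL mice none of the 76 genes was called (limma, 6 with an unadjusted p under 0.05, and 5.54% of all genes), while 10 of 14244 genes were (0.0702%). In PS mice 13 of the 76 were called (17.1%), near the share over all genes (13.1%, with 7.58% higher in females and 5.53% lower). Females were higher in 10 genes, which were Rgs14 (log2 fold change 0.79), Rgs20 (0.63), Akap5 (0.50), Rapgefl1 (0.48), Pde2a (0.44), Prkar1b (0.44), Rgs12 (0.44), Akap8l (0.25), Rgs19 (0.23) and Prkaca (0.19). They were lower in Akain1 (-0.74), Rgs11 (-0.32) and Pde6d (-0.22). Of the 12 genes called between PS and CTRL males, 7 were among these 13. Rgs14, the gene with the largest of these differences, had a mean level of 42.7 ± 8.38 scaled CPM (SD, n = 4) in PS males, 59.0 ± 2.81 in CTRL females, 67.9 ± 5.30 in CTRL males and 74.2 ± 13.9 in PS females. PS males lay below every other library, with 50.2 scaled CPM at most against 56.0 at least in the other groups. Rgs20, which acts on the G alpha subunit Gnaz, had 7.76 to 11.3 scaled CPM in PS males and 11.3 to 18.9 in PS females, which overlapped at their edges. Without CPM scaling the split turned from 10 higher and 3 lower to 7 higher and 9 lower, and 8 genes were called without PS female LM32.

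Other genes of the pathway were taken from lists of G protein subunits and modulators, PKA inhibitors and targets, cGMP signaling and Rap GTPases. In males 5 of 59 tested were called (8.47%), all lower in PS, against 3.44% of all genes (2.56% lower). Without PS males LM25 and LM28 no gene of the whole table was called in males. With the hippocampal level in the model 4 of all 14309 genes were. Prkg2, a cGMP-dependent kinase, had 13.0, 11.8, 13.6 and 17.3 scaled CPM in CTRL males and 8.19, 9.65, 6.69 and 4.75 in PS males. The groups did not overlap (log2 fold change -0.91, SE 0.20, limma, adjusted p = 0.0404). Arpp21, a phosphoprotein that PKA targets, had 289 to 320 scaled CPM in CTRL males and 159 to 228 in PS males (log2 fold change -0.61, limma, adjusted p = 0.0437). Gpsm1, which like Rgs12 and Rgs14 binds inhibitory G alpha subunits through GoLoco motifs, changed by -0.36 (adjusted p = 0.0441). Rap2b, a small GTPase, changed by -0.35 (adjusted p = 0.0456) and Sipa1l1, a synaptic protein that inactivates Rap, by -0.45 (adjusted p = 0.0478). None of 12 G alpha and 13 G beta and gamma genes was called in males. In females none of 60 was called (limma, 5 with an unadjusted p under 0.05). The male minus female difference was called for 9 of 60 genes (15%), all negative, against 4.11% of all genes (2.79% negative). With the hippocampal level in the model it was called for none of all 14392 genes.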

How the data were processed

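Directional poly(A) libraries of 16 mice were sequenced by the authors, who kept uniquely aligned reads (STAR, mm10), counted them per gene (featureCounts) and used RUVs and edgeR. The submitters' notes give no versions and no strand setting. The deposited columns named as raw are not counts: the authors had scaled and corrected them, so they were treated as a score. The deposited CPM is that score as a share of the library total. Within groups, 2 of 12 directions were missing from the values, and both were put back into the model (10 residual degrees of freedom). What the correction changed between groups cannot be recovered. Columns of the authors' own fold changes, p-values and FDR were not used.

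CPM was scaled by TMM factors (0.95 to 1.047), 0.5 was added, and limma 3.58.1 (R 4.3.3) was run on log2 values of all 16 libraries with a mean for each group and a mean trend in the variance. Tests were limited to genes above 0.5 CPM on average in a compared group, and p-values were Benjamini-Hochberg adjusted over all of them. A count model could not be used on such values. No counting interval is given, and 4 libraries per group set the precision. The script was tested on simulated data. Exon lengths and coordinates come from GENCODE M21 (GRCm38), promoters from RefSeq. A total of 25 of the 76 genes share exon bases with another gene.

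The genes and lists were chosen with earlier results of these data known. Named are Bves and Akain1, each gene called in any of the 5 comparisons, the 4 with the smallest p in each direction of the PS comparisons, the 2 most abundant per kb of each family, and up to 2 of each further list by p in males. Other genes named were picked after their values were seen. Alternatives were another scaling, other CPM added, no filter, another variance prior and other samples in the fit. Further ones left the removed directions out of the model or added the hippocampal level as a covariate. Left out were 13 genes under the CPM minimum, and 1 RGS gene was not analysed here. The sources do not say whether males and females shared litters.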

Additional observations from a re-analysis of the deposited data

Results flagged for a closer look

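The effect of PS differed between males and females, by the test of the difference itself (limma, adjusted p under 0.05), for 7 of the 76 genes (9.21%) and 9 of 60 other pathway genes (15%), against 4.11% of all genes. As male minus female log2 fold change, these were 1.35 for Akain1, -0.99 for Rgs14, -0.76 for Akap5, -0.63 for Rgs12, -0.51 for Prkar1b, -0.49 for Pde2a and -0.39 for Rgs19. Akain1 was taken by name with earlier results of these data known, and the 9.21% counts it. The other pathway genes were the kinase Prkg2 (-1.17), the PKA target Arpp21 (-0.92), the PKA inhibitors Pkib (-0.70) and Pkig (-0.62), the G gamma subunits Gng13 (-0.82) and Gng3 (-0.51), the G alpha subunit Gnaz (-0.45), Gpsm1 (-0.47) and Rap2b (-0.48). With the hippocampal level in the model no gene of the whole table was called for this difference. With no mean trend in the variance none of the 76 genes was called (0.0695% of all genes). Without CTRL female LM24, 1 of the 76 was called (0.806% of all genes).

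A single library stood far from the other 3 of its group (Dixon's test) in 7 of 184 groups checked, while chance alone gives about 1 in 20. CTRL male LM20 was high for Rgs14 (75.8 scaled CPM, against 64.6 to 66.3) and for Prkar1b (637, against 549 to 560), both called in males. CTRL male LM17 was high for Pde5a (12.3 scaled CPM, against 9.64 to 10.1). PS male LM26 was high for Gnaz (50.9 scaled CPM, against 46.5 to 47.2). CTRL female LM23 was high for Akap11 (647 scaled CPM, against 569 to 577) and CTRL female LM24 low for Sipa1l1 (486, against 564 to 578). PS female LM32 was low for Pde4a (114 scaled CPM, against 125 to 127).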

How the results depend on the processing

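The counts of called genes (12 in males, 7 for the male minus female difference and 13 for females against males in PS) did not change with 0.1 or 1 CPM added. They were 2, 2 and 12 with low genes kept in, 0, 0 and 13 with no mean trend in the variance, 19, 11 and 20 without the removed directions in the model, 0, 0 and 5 with the hippocampal level in the model, and 0, 6 and 8 without PS males LM25 and LM28. With only the groups compared, 19 were called in males and 14 between the sexes in PS, and the difference cannot be fitted so. Leaving out 1 library at a time gave 0 to 17, 1 to 12 and 8 to 19. Such fits could hold only 1 of the removed directions. The share over all genes moved too, in males from 3.44% to 0.893% with low genes kept in, 0.755% with no mean trend, 11.8% without the removed directions and 13.4% with only the groups compared. For the difference it went from 4.11% to 0.84% with low genes kept in, 0.0695% with no mean trend and 12% without the removed directions. Between the sexes in PS it went from 13.1% to 9.73%, 11.3% and 22.2% in those settings. With the hippocampal level the shares were 0.028%, 0% and 4.74%, and without PS males LM25 and LM28 they were 0%, 5.36% and 11.4%. In females and between the sexes in CTRL the count was 0 in all settings. All 12, 7 and 13 genes kept their sign in all settings. The fold change of Bves in females, -0.18 and not called, turned to 0.26 with the hippocampal level in the model and lay between -0.43 and 0.043 when 1 library was left out (above 0 without PS female LM32). Without scaling the counts were 10, 6 and 16. The split over all genes then moved from 126 higher and 366 lower to 280 and 253 in males, from 189 and 402 to 322 and 242 for the difference, and from 1085 and 792 to 739 and 1661 between PS females and PS males. The causes were not tested. No paired analysis was possible because the groups share no replicate numbers. The depth of the reads is not recoverable from corrected values.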
